A study of Mus musculus with 10 samples.

Results

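The Hox genes of the mouse are 39 genes in 4 clusters, and binding of the E protein HEB and of SMAD2/3 to them was taken from 6 lists of ChIP-seq regions. Members were all listed rows whose gene symbol is Hoxa, Hoxb, Hoxc or Hoxd followed by a number: 11 genes in Hoxa, 10 in Hoxb, 9 in Hoxc and 9 in Hoxd, out of 10730 gene symbols in the 6 lists together and 21896 protein-coding genes in the reference table. Of the 39, Hoxd1 was in no list. The other members gave 98 of 17222 regions in ESC HEB, 88 of 16769 in ESC+SB HEB, 19 of 18981 in Endoderm HEB, 5 of 10147 in Endoderm+SB HEB, 1 of 4111 in ESC SMAD2/3 and 2 of 11033 in Endoderm SMAD2/3.

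Hox genes encode homeodomain transcription factors that give cells their position along the head-to-tail axis. In each cluster the genes stand in the order in which they are used, with low numbers expressed early and towards the head and high numbers late and towards the tail, and genes with the same number in different clusters are paralogues. In embryonic stem cells the clusters are silent and are a textbook example of chromatin held by Polycomb repressive complexes. HEB, the product of Tcf12, belongs to the E proteins, helix-loop-helix factors that bind E-boxes, and SMAD2 and SMAD3 carry activin and Nodal signals to DNA.

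All chromatin came from the mouse CGR8 line of embryonic stem cells (ESCs), with no genetic change stated in the labels. ESCs were kept without feeders in serum and LIF. Endoderm was derived from the same line in serum-free medium, with 100 ng/ml Activin A from day 2 and chromatin taken at day 4. SB431542 blocks the kinases of the type I receptors for activin, Nodal and TGF-beta. ESCs received it at 10 µM for 24 hours and differentiating cells at the same dose for 48 hours, although the labels' wording leaves room for another reading of its timing against Activin A. SMAD2/3 was profiled only without the inhibitor. Each group had 1 ChIP library, so every difference below compares libraries, has no replicate check and carries no test, and intervals are exact Clopper-Pearson 95% intervals that cover counting error only. The lists hold no expression values, so neither the endoderm nor the ESCs could be checked by marker genes, and every group comes from 1 cell line.

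HEB was listed at nearly every Hox gene in ESCs. In ESC HEB 37 of 39 Hox genes had a region within 1 kb, against 24.1% of all protein-coding genes, and the 2 without one were Hoxc4 and Hoxd1. In ESC+SB HEB it was again 37 of 39, against 29.9% of all genes, and the 2 without one were Hoxd1 and Hoxd12. The count was 11 of 39 in Endoderm HEB, near the share over all genes of 24.8%, and 5 of 39 in Endoderm+SB HEB, where it was 23.0%. SMAD2/3 was listed at 1 Hox gene in ESCs (7.32% of all genes) and at 2 in endoderm (23.1%). Hox genes lie close together and 1 region can serve several of them: the 98 ESC HEB regions gave 107 pairs of gene and region.

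**Figure D1:**
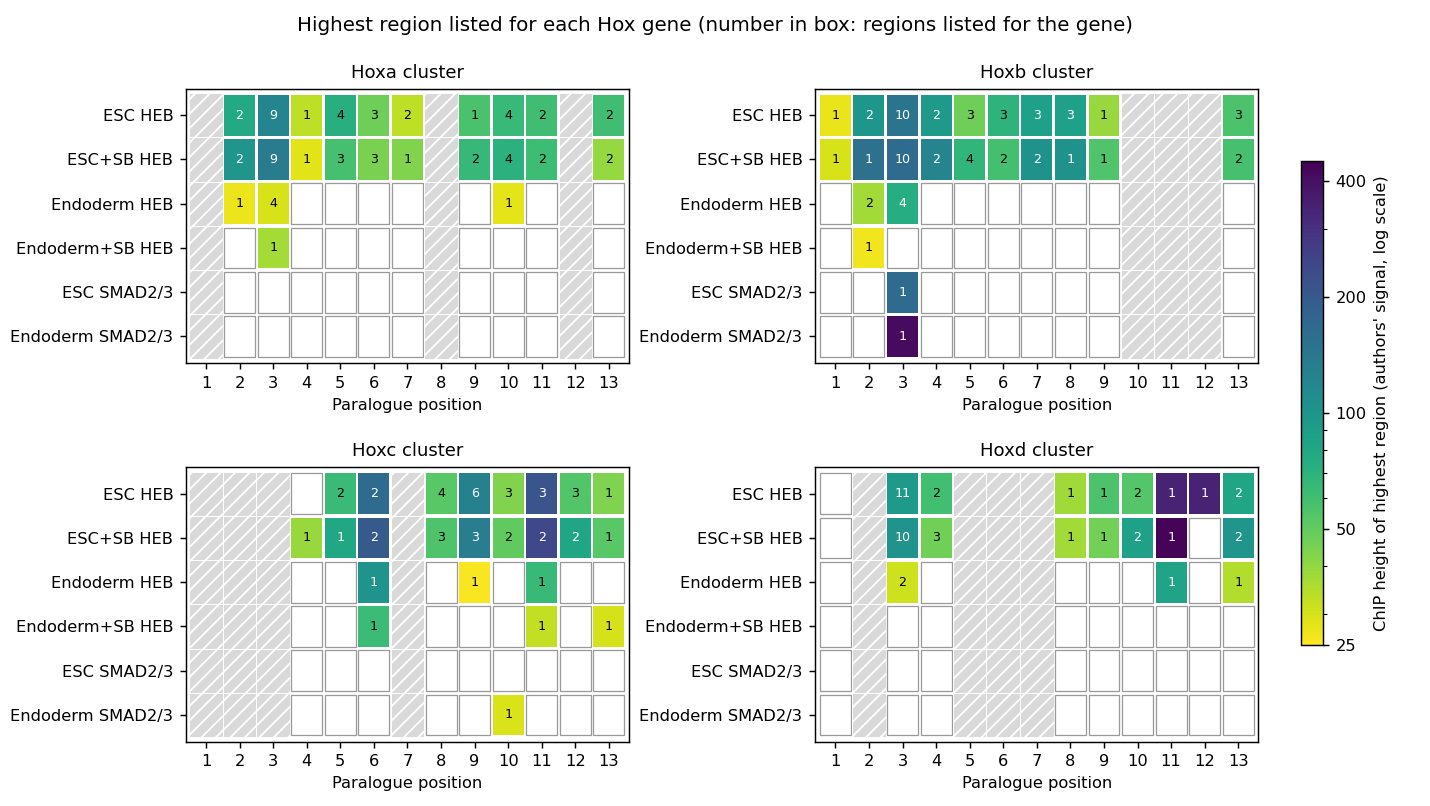
Highest ChIP region of each Hox gene in each of the 6 lists, by cluster and paralogue position. Colour gives the authors' ChIP height on a log scale, the number in a box counts the gene's regions, white boxes are genes with no region and hatched boxes are positions without a gene or not shown; the 2 ESC HEB rows hold 37 of 39 genes each and the endoderm HEB rows 11 and 5, where 24.8% and 23.0% of all protein-coding genes were listed.

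HEB regions were spread along all 4 clusters in ESCs. Between the outermost HEB regions of each cluster, ESC HEB regions covered 52.7% of the 109.5 kb of Hoxa, 34.6% of the 175.0 kb of Hoxb, 44.9% of the 115.5 kb of Hoxc and 45.6% of the 83.8 kb of Hoxd. With SB431542 the shares were 55.7%, 35.2%, 46.4% and 43.0%. Hoxb, the least covered, includes the long gap between Hoxb13 and Hoxb9 that holds few regions. In endoderm the same spans were covered to 5.23%, 6.19%, 7.37% and 9.54%, and Endoderm+SB HEB regions covered 0.565, 2.63, 2.96 and 0 kb of them in the same order, so that Hoxd had no region at all in that list.

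**Figure D2:**
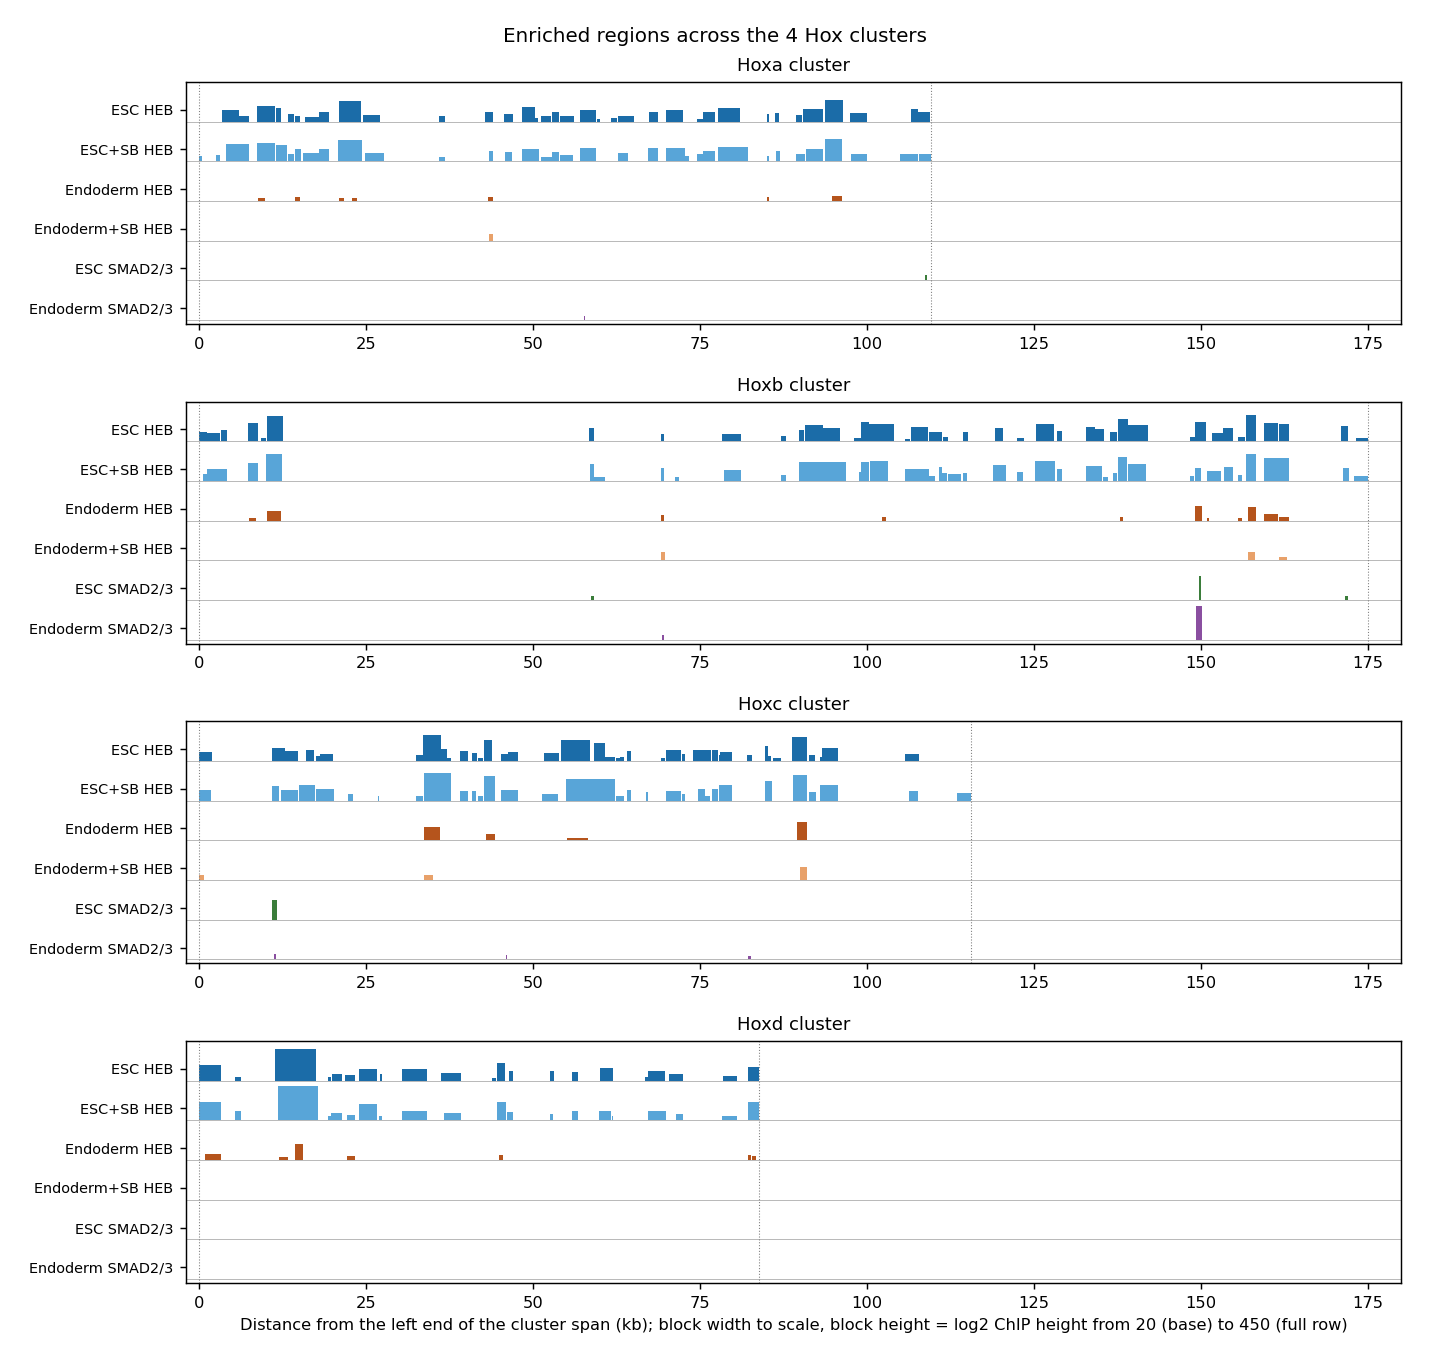
Regions of the 6 lists along the 4 clusters, in kb from the left end of each span (dotted lines mark both ends). Blocks have their true width and a height that follows log2 of the ChIP height from 20 to 450. HEB blocks are spread along each cluster in both ESC lists, and in endoderm fewer HEB blocks stand at places that also carry ESC blocks.

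ESC HEB regions were packed more densely in the Hox clusters than in nearly all of the genome. When the genome was divided into tiles of 100 kb, 1.55% of the 7183 tiles with an ESC HEB region held at least 10. The fullest Hoxa tile held 32, the highest number of any tile, and the fullest tiles of Hoxb, Hoxc and Hoxd held 24, 24 and 22, against a median of 2. In ESC+SB HEB the fullest tiles held 31, 25, 20 and 21 regions in the same order, where 1.37% of tiles reached 10. In Endoderm HEB they held 8, 10, 2 and 8, and 0.470% of tiles reached 10, with a highest count of 18 elsewhere.

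Hox regions in ESCs were wide. The median width was 1458 bp (221 to 6194 bp) in ESC HEB and 1650 bp (253 to 7358 bp) in ESC+SB HEB, against 513 bp and 573 bp over all regions and 628 bp and 696 bp over promoter-proximal regions, those within 1 kb of a listed gene's 5′ end. More than 2000 bp were spanned by 31 of 98 ESC HEB Hox regions (31.6%, 95% interval 22.6 to 41.8), against 2.06% of all regions and 6.88% of the promoter-proximal ones. In ESC+SB HEB it was 37 of 88 (42.0%, 31.6 to 53.1), against 2.59%. Hox regions were thus 8.76% and 8.53% of all wide regions of these lists, and 0.569% and 0.525% of all their regions. In Endoderm HEB 4 of 19 were this wide, at Hoxb2, Hoxc9, Hoxc11 and Hoxd13, against 1.05% of the list, and the median of 838 bp stood against 489 bp. None of the 5 regions in Endoderm+SB HEB was this wide, where the share of the list was 0.237%.

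**Figure D3:**
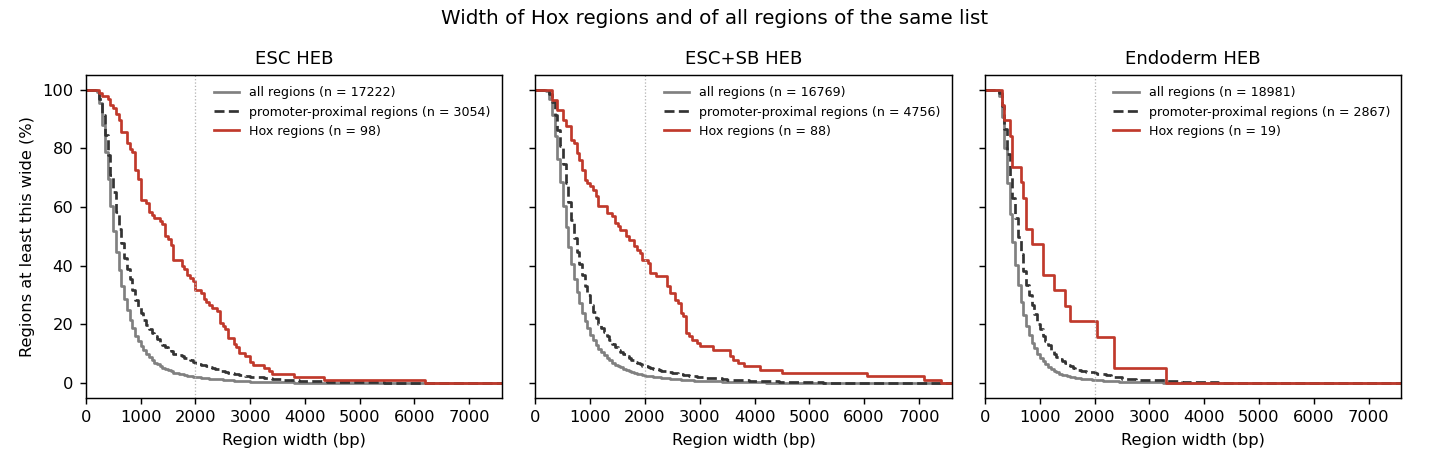
Share of regions (%) at least as wide as the value on the x axis (bp), for Hox regions, all regions and promoter-proximal regions of 3 HEB lists; the dotted line marks 2000 bp. At that width the Hox curve stands at about 31.6% in ESC HEB and 42.0% in ESC+SB HEB, far above both other curves.

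The regions were wide rather than tall. The median ChIP height, the authors' peak signal, was 46.0 for Hox regions and 37.6 for all regions in ESC HEB, and 46.6 and 40.0 in ESC+SB HEB, which put the median Hox region at the 64.7th and the 62.8th percentile of its list. In endoderm the order was the other way, 29.1 against 39.2, with the median Hox region at the 21.2nd percentile. Tags per kb did not set Hox regions apart in ESC HEB, 324 against 334 over all regions. Input tags per kb were fewer at Hox regions in all 4 HEB lists, with 26.6 against 42.9 in ESC HEB and 18.4 against 29.5 in Endoderm HEB. The ratio of ChIP to input tags, here called tag enrichment, had a Hox median of 11.8 in ESC HEB against 8.44 over the list, and of 12.8 against 12.7 in Endoderm HEB. The part of the lower input in these ratios was not tested.

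The tallest ESC HEB block lay in Hoxd. The region chr2:74516471-74522665 (mm9, as are all region positions here) covered Hoxd11, a gene of forearm and kidney development, over 6194 bp, with 5568 ChIP and 165 input tags, a height of 341.8 and a tag enrichment of 33.8. The same place had a height of 438.6 in ESC+SB HEB, 83.9 in Endoderm HEB and no region in Endoderm+SB HEB. Its ESC edge lay 709 bp from Hoxd12, which was listed through it alone; with SB431542 the region started at 74516872, and Hoxd12 was no longer listed. The loss of Hoxd12 with SB431542 is therefore a move of a region edge. Next in Hoxd by tag enrichment were 1 of 1114 bp that covered the Hoxd3 start (25.9) and 1 of 3216 bp at Hoxd13 (19.0), the gene of the digits.

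In Hoxc the highest tag enrichment of all Hox regions, 46.9, was at Hoxc11, in a region of 2577 bp with 3145 ChIP and 67 input tags and a height of 210.2. Hoxc5 followed at 26.8 and Hoxc9, a gene of trunk motor neuron identity, at 24.3, the latter in the widest region of the cluster (4328 bp). Among regions listed for a Hoxb gene, 2 adjoining regions at Hoxb2, a hindbrain gene, led with tag enrichments of 34.1 and 29.8. A region of 2783 bp shared by Hoxb7 and Hoxb8 followed at 27.2. The widest region listed for a Hoxb gene, 3029 bp, lay in Hoxb3. The leading Hoxa regions were, rank for rank, the lowest of the 4 clusters: Hoxa3, needed for pharyngeal glands, at 22.6, Hoxa2, which patterns the hindbrain and the second pharyngeal arch, at 19.3, and Hoxa10, needed in the uterus and lumbar spine, at 18.9 in the widest Hoxa region (3374 bp). Heights of these leading regions ran from 63.7 at Hoxc5 to 341.8 at Hoxd11. These ranks cover only regions listed for a Hox gene. Other ESC HEB regions in the spans were taller than every listed region of their cluster, with 204.6 and 183.4 in Hoxb and 138.2 in Hoxa. The Hoxb places had heights of 66.6 and 48.9 in Endoderm HEB.

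By paralogue position, HEB in ESCs reached from one end of the clusters to the other. ESC HEB listed 10 of 12 genes at positions 1 to 4, 11 of 11 at positions 5 to 8 and 16 of 16 at positions 9 to 13, and the median of the genes' highest regions was 87.0, 63.7 and 58.8. Their ranges overlapped widely, 27.4 to 147.4, 33.3 to 165.7 and 38.9 to 341.8. Position 3 held the most regions: Hoxa3, Hoxb3 and Hoxd3 gave 30 of the 107 pairs. Of these, 5 were within 1 kb of a 5′ end and the others up to 37268 bp away by the authors' distances. The 3 genes are annotated as long units, and only at Hoxb3 do the distances refer to more than 1 start. Hoxb1, a gene of the hindbrain at the head end of its cluster, had 1 region, with a height of 27.4 in ESC HEB and 29.8 in ESC+SB HEB.

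In Endoderm HEB 5 of 12 genes were listed at positions 1 to 4, 1 of 11 at positions 5 to 8 and 5 of 16 at positions 9 to 13. Every gene of positions 2 and 3 was among them (Hoxa2, Hoxb2, Hoxa3, Hoxb3 and Hoxd3), and no gene of positions 4, 5, 7, 8 or 12. Hoxc6 was the single gene listed between positions 4 and 8. In Endoderm+SB HEB the counts were 2 of 12, 1 of 11 and 2 of 16.

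With SB431542 in ESCs nearly the same Hox genes were listed. Of the 37 Hox genes in ESC HEB, 36 were listed in ESC+SB HEB (97.3%, 85.8 to 99.9), against 87.4% of all ESC HEB genes; in lists of equal length it was 18 of 21 (85.7%), against 83.9%. By regions, 94 of 98 overlapped a region of ESC+SB HEB (95.9%, 89.9 to 98.9), against 74.8% over the list. The 4 that did not had heights of 25.3 to 26.9, below the lowest height of 28.0 in the ESC+SB HEB list, so their absence cannot be told apart from its limit. At the 94 shared places the height with SB431542 over that without had a median of 1.14 (0.543 to 4.55) and exceeded 1 at 70; over all 12888 shared regions the median was 1.08 and 61.0% exceeded 1. Hoxc4 was the single Hox gene gained, through a region of 2095 bp at chr15:102864383-102866478 with a height of 38.9. It is the last Hoxc gene towards the head end.

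The promoter sequences below belong to genes at the extremes of these lists. Hoxd13, Hoxd11 and Hoxd3 had a HEB region over a 5′ end both in ESCs and in endoderm; Hoxd1 had a region in no list and Hoxc4 in ESC+SB HEB alone. Each is the 250 bases before a gene start in RefSeq, GRCm38.p6, read 5′ to 3′ on the gene's strand, with capitals for E-boxes, CANNTG, a motif that reads the same on both strands. Hoxd11 has 2 annotated starts, and which of them lies under the region in each list was not worked out across builds.
Hoxd13, chr2:74667975-74668224, plus strand: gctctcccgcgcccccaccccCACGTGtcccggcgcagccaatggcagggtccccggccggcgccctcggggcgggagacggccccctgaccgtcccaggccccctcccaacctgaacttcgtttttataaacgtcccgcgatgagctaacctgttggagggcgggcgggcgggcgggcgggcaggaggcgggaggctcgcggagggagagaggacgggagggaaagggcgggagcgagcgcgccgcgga
Hoxd11 window 1, chr2:74679308-74679557, plus strand: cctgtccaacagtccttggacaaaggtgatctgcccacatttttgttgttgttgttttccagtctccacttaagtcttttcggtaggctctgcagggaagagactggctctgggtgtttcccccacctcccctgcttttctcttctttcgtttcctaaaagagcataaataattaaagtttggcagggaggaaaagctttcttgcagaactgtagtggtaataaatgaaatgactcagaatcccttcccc
Hoxd11 window 2, chr2:74682073-74682322, plus strand: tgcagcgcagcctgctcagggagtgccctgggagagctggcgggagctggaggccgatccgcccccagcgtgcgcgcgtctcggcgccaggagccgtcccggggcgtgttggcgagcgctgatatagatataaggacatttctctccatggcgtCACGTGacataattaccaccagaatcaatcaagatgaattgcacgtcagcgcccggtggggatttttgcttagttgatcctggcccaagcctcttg
Hoxd3, chr2:74711743-74711992, plus strand: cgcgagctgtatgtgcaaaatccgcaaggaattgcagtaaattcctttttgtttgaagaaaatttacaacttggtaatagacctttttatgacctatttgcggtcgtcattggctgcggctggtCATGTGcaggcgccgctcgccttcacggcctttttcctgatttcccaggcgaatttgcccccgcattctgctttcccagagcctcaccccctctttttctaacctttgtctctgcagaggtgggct
Hoxd1, chr2:74762730-74762979, plus strand: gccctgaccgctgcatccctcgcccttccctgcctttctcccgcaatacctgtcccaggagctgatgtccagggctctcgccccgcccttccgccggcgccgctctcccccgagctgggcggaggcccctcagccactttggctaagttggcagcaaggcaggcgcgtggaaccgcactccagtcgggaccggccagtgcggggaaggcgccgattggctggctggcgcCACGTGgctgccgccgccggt
Hoxc4, chr15:103034145-103034394, plus strand: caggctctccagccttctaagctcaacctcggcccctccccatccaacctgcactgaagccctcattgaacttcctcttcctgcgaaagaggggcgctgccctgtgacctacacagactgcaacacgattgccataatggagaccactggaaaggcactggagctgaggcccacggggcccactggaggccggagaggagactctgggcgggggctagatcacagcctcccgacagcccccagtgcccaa

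An E-box stood in 17 of the 24 windows of the 22 Hox genes that the RefSeq table holds (70.8%), against 66.2% of all 32851 windows of this length. It stood before 5 of the 6 genes with a window that were listed in Endoderm HEB, Hoxa10 being the exception, and before 12 of the 16 that were not, so an E-box in this window did not separate them. The core CAGCTG, contained in CANNTG, was in 3 Hox windows (12.5%, against 4271 of all windows), those of Hoxa3, Hoxa5 and Hoxa6, and the core CAGGTG on either strand was in none, against 17.2%. The form CACGTG, counted after the sequences had been seen, was in 4 windows (16.7%, against 6.02%), at Hoxd1, Hoxd10, Hoxd11 and Hoxd13. Hoxd1 with an E-box had no HEB region in any list, and Hoxc4 without one had a region with SB431542.

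The share of Hox genes that kept HEB in endoderm was below that over all genes of the list. Of the 37 Hox genes of ESC HEB, 11 were listed in Endoderm HEB (29.7%, 15.9 to 47.0), against 62.8% of all genes of the ESC HEB list. By regions, 17 of 98 ESC HEB Hox regions overlapped an Endoderm HEB region (17.3%, 10.4 to 26.3), against 32.1%. In the other direction, all 11 Hox genes of Endoderm HEB were in ESC HEB, against 60.9%, and 18 of 19 of their regions overlapped one of ESC HEB (94.7%), against 29.1%. The nineteenth, a region of 304 bp at Hoxb3 with a height of 25.3, overlapped a region of ESC+SB HEB (48.4). Only Hoxc4 and Hoxd1 were missing from ESC HEB, so hardly any Hox gene could have been new in endoderm. ESC HEB regions also covered 34.6% to 52.7% of the cluster spans, which makes an overlap of 1 bp easy to reach. The high shares in this direction are therefore not read as a trait of endoderm. By cluster, 5 of 28 Hoxa regions, 5 of 28 in Hoxb, 3 of 24 in Hoxc and 4 of 18 in Hoxd were kept.

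Height in ESCs went with being kept. The kept Hox regions had a median ESC height of 96.4 (30.4 to 341.8) and the others of 43.8 (25.3 to 101.6), so the groups overlapped, while their widths, 1597 and 1410 bp, were closer. When all ESC HEB regions were ordered by height and divided into quintiles, 13 of 22 Hox regions of the highest quintile were kept (59.1%, against 48.1% of all its regions), but 1 of 34 in the fourth (2.94%, against 34.4%), 1 of 17 in the third (5.88%, against 30.4%), 2 of 12 in the second (16.7%, against 26.3%) and 0 of 13 in the lowest (21.5%). The boundary of the highest quintile was a height of 64.3. The share kept among wide and among promoter-proximal Hox regions was below that of such regions in the whole list: among regions over 2000 bp 8 of 31 Hox regions were kept (25.8%) against 69.5% of all such regions, and among promoter-proximal ones 9 of 55 (16.4%) against 51.2%.

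**Figure D4:**
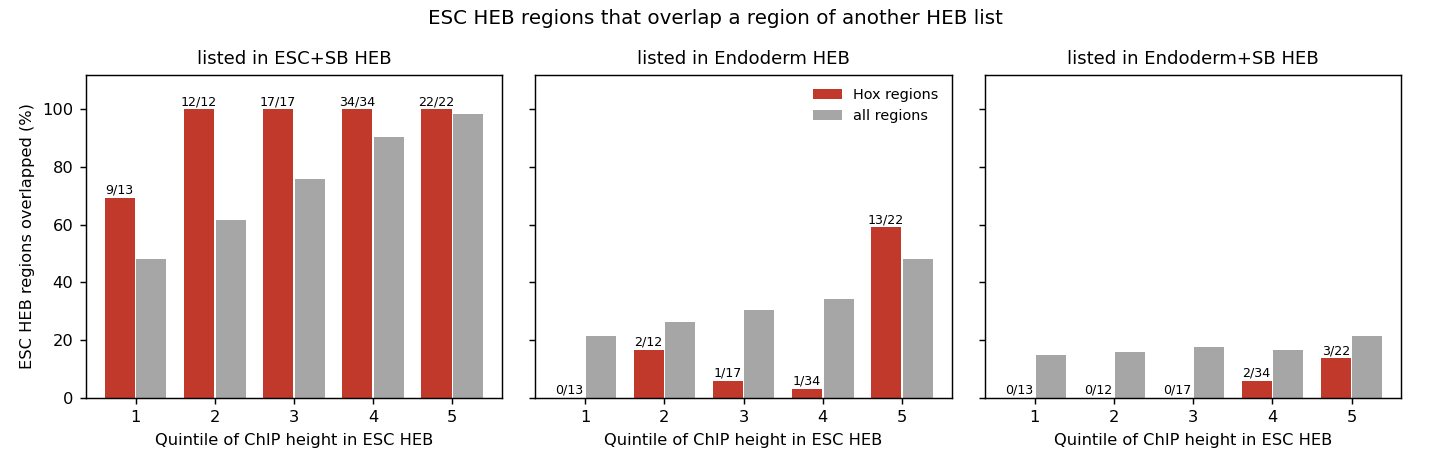
Share (%) of ESC HEB regions that overlap a region of another HEB list, by quintile of ChIP height in ESC HEB, for Hox regions (red, with counts) and all regions (grey). With SB431542 in ESCs nearly all Hox regions were matched; in Endoderm HEB 13 of 22 were matched in the highest quintile and 4 of 76 in the others.

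At the places that were kept, HEB was lower in the endoderm library. At all 18 shared places the ESC height exceeded the endoderm height, with a median ratio of 2.76 (1.06 to 5.08), while over all 5518 shared regions the median ratio was 1.04 and 53.6% exceeded 1. The scale of the heights is not stated, so the ratio at Hox places is read against that median rather than by itself. That median is not matched for ESC height. Of the 17 kept ESC Hox regions, 13 were in the highest quintile of height. Both lists begin at a height of 25.0, so regions low in ESCs cannot give high ratios. The ESC region was often the wider one, and 1 of them, at Hoxa3, served 2 of the 18 places. The part of these points in the Hox ratio was not tested. The ratio was smallest at a Hoxa3 place (31.7 and 29.9) and largest at a Hoxb3 place (147.4 and 29.0).

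**Figure D5:**
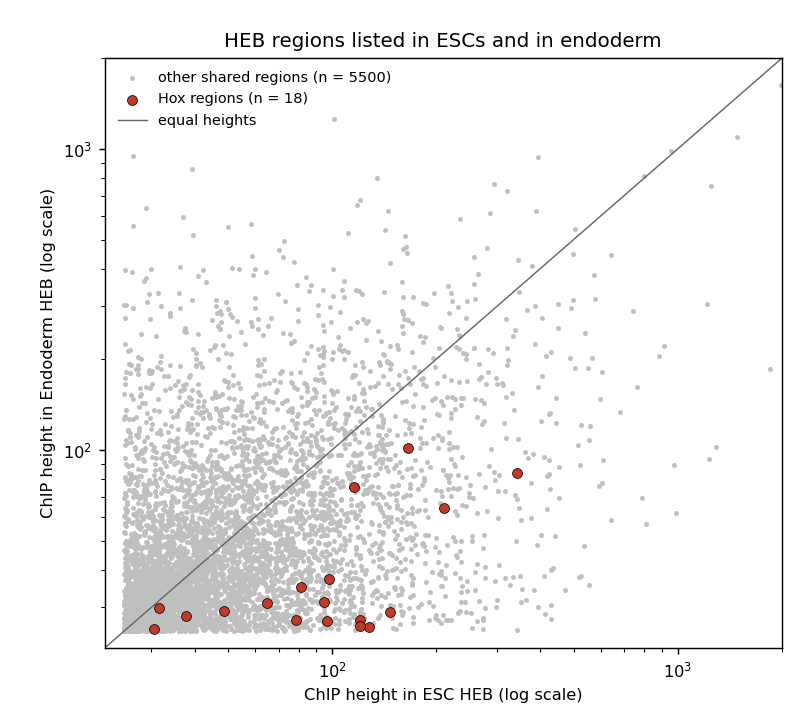
ChIP height in ESC HEB (x axis, log scale) and in Endoderm HEB (y axis, log scale) for 5518 Endoderm HEB regions that overlap an ESC HEB region; the line marks equal heights. All 18 Hox points lie below the line, and the other points lie on both sides.

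Among head-end genes, Hoxb2 kept both of its regions. The left had heights of 98.1 in ESC HEB, 154.7 in ESC+SB HEB and 37.4 in Endoderm HEB and was not listed in Endoderm+SB HEB; the right had 96.4, 154.7, 27.0 and 26.7, the ESC+SB HEB value being that of 1 region across both places. Hoxa2 kept 1 region, with 78.9 in ESC HEB, 99.5 in ESC+SB HEB, 27.3 in Endoderm HEB and none in Endoderm+SB HEB. Both genes were thus lower in endoderm than in either ESC list.

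Position 3 held 10 endoderm regions over 3 genes, and all but the Hoxb3 region of 304 bp overlapped an ESC HEB region. Hoxa3 had 4, with heights of 26.1 to 29.9, under ESC regions of 31.7, 120.8 (which held 2 of them) and 48.7. The place under the last of these, chr6:52147412-52147977 in Endoderm+SB HEB, had a height of 36.7 with SB431542 against 29.1 without. The other 3 Hox places shared by both endoderm lists were lower with it, at Hoxb2 by little (27.0 and 26.7). Over all 4818 regions shared by these lists, 59.3% were lower with it. Hoxb3 had 4, of which 3 were low (25.3 to 29.0) and 1 had 75.1 against 115.5 in ESC HEB and 62.8 in ESC+SB HEB. Hoxd3 kept its 5′ end (95.1 in ESC HEB, 102.4 in ESC+SB HEB, 31.2 in Endoderm HEB) and a place that the authors put 37264 bp from a 5′ end (64.9, 101.9 and 31.0). None of the Hoxb3 or Hoxd3 places was listed in Endoderm+SB HEB.

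Hoxc6, which marks the thoracic region, had the tallest Hox region in Endoderm HEB. Its heights were 165.7 in ESC HEB, 201.0 in ESC+SB HEB, 101.5 in Endoderm HEB and 62.4 in Endoderm+SB HEB, and the endoderm value stood at the 89.8th percentile of its list. It had 512 ChIP tags against 24 input tags over 1545 bp in Endoderm HEB. Tag enrichment there, 16.9, was below that of Hoxd11 (25.9) and Hoxc11 (19.5). Hoxc11 had the same order of heights, 210.2, 240.9, 64.2 and 32.8, with 893 ChIP and 43 input tags in endoderm. Both were highest in ESC+SB HEB and lowest in Endoderm+SB HEB.

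Of the other tail-end genes, Hoxd11 had 341.8, 438.6 and 83.9 and Hoxd13 had 81.5, 99.8 and 35.1 in ESC HEB, ESC+SB HEB and Endoderm HEB. Hoxc9 had 127.9, 133.3 and 25.8, the endoderm region being the widest Hox region there (3271 bp) and almost the lowest, at the 4.54th percentile of the list. Hoxa10 had 37.8, 31.7 and 28.2, at a place of 288 bp that was 1518 bp from its 5′ end. None of these 4 was listed in Endoderm+SB HEB. A HEB region covered the 5′ end of 29 Hox genes in ESC HEB and of 5 in Endoderm HEB. The 5 were Hoxc9, Hoxc11, Hoxd3, Hoxd11 and Hoxd13. The share of all genes with a covered 5′ end was not computed for either list. The lower count in endoderm is therefore not read against the whole lists.

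With SB431542 in the differentiating cells, 4 of the 11 Hox genes of Endoderm HEB were listed (36.4%, 10.9 to 69.2), against 57.1% of all genes of that list. These were Hoxa3, Hoxb2, Hoxc6 and Hoxc11. By regions it was 4 of 19 (21.1%, 6.05 to 45.6), against 25.3%, and the intervals of both shares include the share of the whole list. Of the 37 Hox genes of ESC HEB, 5 were in Endoderm+SB HEB (13.5%, 4.54 to 28.8), against 49.8%, and 5 of 98 regions (5.10%, 1.68 to 11.5), against 17.3%. The gene that was not in Endoderm HEB was Hoxc13, a gene of hair and nails, whose heights were 43.8 in ESC HEB, 53.1 in ESC+SB HEB and 30.2 in Endoderm+SB HEB. That last region had 164 ChIP tags and 30 input tags, a tag enrichment of 5.47, the lowest of the 5. The Endoderm+SB HEB list is shorter than Endoderm HEB, with 2284735 against 5051930 ChIP tags, and its part in the lower counts was not tested.

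SMAD2/3 was listed at Hoxb3 in both cell types and at Hoxc10 in endoderm. At Hoxb3 the ESC region, chr11:96203313-96203653, had 454 tags in ChIP and 13 in input, a height of 166.2 and a tag enrichment of 34.9. The endoderm region, chr11:96202882-96203766, contained that place and had 1333 ChIP and 22 input tags, a height of 414.2 and a tag enrichment of 60.6. These stood at the 98.4th and 99.6th percentiles of height in their lists. The authors' distances to a Hoxb3 5′ end are 18873 and 18442 bp, both to the same annotated start. The ESC HEB region over the same place has a distance of 801 bp, to another and nearer start. HEB had a region over the same place in ESC HEB (115.5), ESC+SB HEB (62.8) and Endoderm HEB (75.1), and none in Endoderm+SB HEB. At this place HEB was lower with SB431542 in ESCs, while 70 of the 94 shared Hox places were higher. Other SMAD2/3 places in the cluster spans went both ways. HEB without and with SB431542 was 46.1 and 39.5 at Hoxa13, but 38.7 and 50.7 at Hoxc10. A link of the change to SMAD2/3 was not tested.

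Hoxc10, a gene of lumbar motor neurons, had an endoderm SMAD2/3 region of 239 bp, 136 bp from its 5′ end, with 82 tags in ChIP and 8 in input and a height of 29.6. HEB covered that place in ESC HEB (38.7) and ESC+SB HEB (50.7) and was not listed there in endoderm. Within the cluster spans, 4 further ESC and 4 further endoderm SMAD2/3 regions were listed for no Hox gene. The tallest was an ESC region in Hoxc, chr15:102761938-102762646, between the listed places of Hoxc13 and Hoxc12, with a height of 119.0 and an endoderm height of 33.8, over HEB regions of 66.2 in ESC HEB and 73.9 in ESC+SB HEB. Hoxa13 had an unlisted ESC SMAD2/3 region of 263 bp under its HEB region, with a height of 31.8. Hoxd had no SMAD2/3 region in either cell type.

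Most HEB regions at the Hox clusters had no SMAD2/3 region. Of the 37 ESC HEB Hox genes, 1 was also in ESC SMAD2/3 (2.70%, 0.0684 to 14.2), against 26.1% of all ESC HEB genes. Of the 98 regions 2 overlapped an ESC SMAD2/3 region, at Hoxb3 and Hoxa13 (2.04%, 0.248 to 7.18), against 19.8%. In endoderm 1 of 19 HEB Hox regions overlapped SMAD2/3, at Hoxb3 (5.26%, 0.133 to 26.0), against 35.3%. HEB and SMAD2/3 lists of the same cells were set against the same input, so their overlap is not independent of it.

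Of the microRNA genes looked up in the clusters, all but Mir196a-1 had HEB regions in ESCs, and none had one in endoderm. Mir10a, Mir10b, Mir196a-2, Mir196b and Mir615, 5 of the 9 non-coding RNA genes looked up in the clusters, had HEB regions in ESC HEB and ESC+SB HEB, and none of the 9 was in an endoderm or SMAD2/3 list. The shares over protein-coding genes were 24.1% and 29.9% in these ESC lists and 24.8% and 23.0% in the endoderm HEB lists, so with 9 genes the counts are small. Each of the 5 shared a region with a Hox gene. Mir10a shared a region of 2756 bp with Hoxb4 (height 95.4, and 121.9 with SB431542), Mir10b 1 with Hoxd3 and Hoxd4 (60.2 and 47.0), Mir615 1 with Hoxc5 (63.7 and 80.6), Mir196b 1 with Hoxa10 (46.7 and 51.4) and Mir196a-2 1 with Hoxc10 (39.3 and 36.1). Their mature RNAs, from RefSeq, are shown with the seed (bases 2 to 8) in capitals because paralogous clusters carry copies with 1 seed: miR-10a and miR-10b share ACCCUGU, miR-196a and miR-196b share AGGUAGU, and miR-615 stands alone.
mmu-miR-10a-5p: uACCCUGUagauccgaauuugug
mmu-miR-10b-5p: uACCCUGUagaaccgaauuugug
mmu-miR-196a-5p: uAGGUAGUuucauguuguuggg
mmu-miR-196b-5p: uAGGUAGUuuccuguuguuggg
mmu-miR-615-3p: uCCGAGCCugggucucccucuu

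Genes that act with or upstream of Hox proteins were listed in both cell types. Of 9 cofactor genes of the Meis, Pbx and Pknox families, 8 were listed in ESC HEB, 7 in ESC+SB HEB, 6 in Endoderm HEB and 7 in Endoderm+SB HEB, with SMAD2/3 at 2 in ESCs and 6 in endoderm. For these and the lists that follow, the shares over all protein-coding genes were 24.1%, 29.9%, 24.8% and 23.0% in the HEB lists in this order, and 7.32% and 23.1% in the SMAD2/3 lists. Tag enrichment at Meis2 was 81.7 in ESC HEB, and at Pknox2 it was 31.4 in ESC HEB and 81.8 in Endoderm HEB. Of 12 names of upstream regulators, 8, 8, 7 and 5 were listed in the HEB lists in the same order, and 3 and 7 in the SMAD2/3 lists; Rarg, a retinoic acid receptor, led ESC HEB at 35.2 and Rarb led Endoderm HEB at 37.5. The ParaHox and Cdx genes, the relatives of Hox genes, went 4, 4, 1 and 0 of 6. Their ESC members were Cdx1, Cdx2, Gsx1 and Gsx2, and Cdx2 was the 1 in Endoderm HEB. Of 10 neighbours of the clusters 6, 7, 5 and 4 were listed, with Evx2, next to Hoxd13, leading both ESC lists (19.4 and 16.3) and listed in neither endoderm list.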

How the data were processed

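HEB and SMAD2/3 were measured by ChIP-seq in 6 groups with 1 ChIP library each, beside 4 input libraries. Per the submitters' processing notes, CASAVA 1.8.2 and build mm9 were used; for the aligner, the peak caller and the gene models, nothing is stated in the sources used here. Per the file headers, the authors deposited for each region counts of ChIP and input tags, the signal height of the ChIP peak and of the background, and the ratio of tags, here tag enrichment; the scaling of height is not stated. The deposited distances, in bp, run from a region to the listed gene and to 1 of its 5′ ends, not always the nearest start. The deposited rank and −log10 q-value columns, treated as a score, were not used.

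The authors' assignment lists a gene when a region lies within 1 kb of it. Each region was counted once. Of the 39 Hox genes, 1 is counted in the totals and not described individually here. Hox genes were found by symbol, all others by fixed lists; the members and lists were chosen with earlier results of these data known. Named were the 3 regions of highest enrichment and the widest per cluster in ESC HEB, and every gene in an endoderm or SMAD2/3 list. Overlap was at least 1 bp (pandas 2.3.3, scipy 1.17.1), tested on simulated lists and against bedtools 2.31.1. Total ChIP tags in regions ran from 933126 (ESC SMAD2/3) to 5051930 (Endoderm HEB). Intervals are Clopper-Pearson 95% intervals. Alternatives varied list length, minimum height, promoter distance, overlap and merging. Gene names come from the RefSeq table of GRCm38.p6, of which no coordinates were used for regions. Region positions stand as in the deposited lists, which do not state their counting base.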

Additional observations from a re-analysis of the deposited data

Results flagged for a closer look

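At 3 of the 4 Hox genes listed in all HEB lists, SB431542 went with a higher height in ESCs and a lower height in endoderm. Hoxb2 had 98.1 and 154.7 in ESCs without and with the inhibitor and 37.4 and 26.7 in endoderm, a difference between the log2 changes, endoderm minus ESC, of -1.14. For Hoxc6 (165.7 and 201.0 in ESCs, 101.5 and 62.4 in endoderm) the difference was -0.98, and for Hoxc11 (210.2 and 240.9, 64.2 and 32.8) it was -1.17. At Hoxb2 the highest endoderm regions without and with SB431542 were different ones, and at the place listed in both the heights were 27.0 and 26.7. Hoxa3, the fourth gene, was higher with the inhibitor in both cell types, with a difference of 0.14. Over all 12888 regions shared by the ESC lists, the height with SB431542 over that without had a median of 1.08. It exceeded 1 at 61.0% of them. Over 4818 regions shared by the endoderm lists, the height without over that with had a median of 1.09. That ratio exceeded 1 at 59.3%. Both directions were thus also the commoner ones in the whole lists. The differences were not tested, since each group is 1 library.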

How the results depend on the processing

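No paired analysis was possible because each group has 1 library, and for the same reason no library could be left out. Of 78 alternative values for 30 results, 40 stayed within 1.5 times the count or within the 95% interval of the share or median. Lists cut to the 4111 tallest regions held 21 Hox genes in ESC HEB, 24 in ESC+SB HEB, 3 in Endoderm HEB, 1 in Endoderm+SB HEB and 1 in Endoderm SMAD2/3; 18, 3 and 1 of the 21 genes of ESC HEB were then kept in ESC+SB, Endoderm and Endoderm+SB HEB (85.7%, 14.3% and 4.76%, against 83.9%, 40.1% and 33.1% of all genes), so the Hox share kept with SB431542 in ESCs was then close to that of all genes; 1 gene of Endoderm HEB was kept with SB431542, 1 Endoderm SMAD2/3 region was left, and 10.0% of ESC HEB Hox regions overlapped Endoderm HEB. The upper 50% of each list by height left 4 genes in Endoderm HEB, 2 in Endoderm+SB HEB and 1 in Endoderm SMAD2/3 (1 region), with 4 and 2 of 34 ESC HEB genes kept in Endoderm and Endoderm+SB HEB (11.8% and 5.88%, against 50.5% and 32.7% of all genes) and 1 of Endoderm HEB kept with SB431542. With promoter-proximal regions alone, by the authors' distances, Endoderm+SB HEB had 2 genes, ESC SMAD2/3 had 0 genes and 0 regions, Endoderm SMAD2/3 had 1 gene and 1 region, 2 of 36 ESC HEB genes were kept in Endoderm+SB HEB (5.56%, against 48.2% of all genes) and 1 gene of Endoderm HEB was kept with SB431542. All regions inside the spans numbered 29 in Endoderm HEB, 5 in ESC SMAD2/3 and 6 in Endoderm SMAD2/3. When 50% of both regions had to overlap, 72.4% of ESC HEB Hox regions were matched in ESC+SB HEB, 1.02% in Endoderm+SB HEB and 0% in ESC SMAD2/3. Shares over all regions were computed neither for this rule nor for the 10.0% in lists of equal length. The share of all protein-coding genes listed in each cut list was not computed either. These values are therefore not read against the whole lists. Merging regions within 500 bp raised the median Hox width to 2966 bp in ESC HEB and 2884 bp in ESC+SB HEB, against 529 and 585 bp over all merged regions. By ChIP tags per kb the median Hox region stood at the 46.1st percentile in ESC HEB, the 53.1st in ESC+SB HEB and the 10.6th in Endoderm+SB HEB, and by tag enrichment at the 83.8th in ESC+SB HEB and the 50.6th in Endoderm HEB, so its rank above the list median in ESC HEB and below it in Endoderm HEB depends on the measure. The common minimum height of 28.0 moved no count by over 1.5 times. The Hox share kept in Endoderm HEB stayed below that of all genes under each of the list alternatives tried. Depth is known only as tags in regions, of which Endoderm HEB held 5051930, ESC HEB 4810688 and Endoderm+SB HEB 2284735.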
